A study of Mus musculus with 10 samples.

Results

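The genes of GABA and glycine signalling were examined in the whole brain of newborn *Arid1b* heterozygous and wild-type mice. They were chosen by name: 31 genes that encode GABA and glycine receptors, the enzymes and vesicle transporter that supply the transmitters, the transporters that clear them, the chloride cotransporters, the inhibitory postsynaptic scaffold and the GABARAP proteins. Of these, 30 were in the table of 18444 genes, and *Gabra6* was not analysed here. All 30 passed the minimum mean of 10 normalised counts that was set for testing. The list was drawn up with earlier results of these data known.

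The libraries came from 10 male C57BL/6N mice at postnatal day 3, each giving 1 library of poly-A mRNA from the whole brain. The 5 heterozygous mice (HT, *Arid1b* +/-) carry 1 *Arid1b* allele with a CRISPR/Cas9 edit at exon 5 that truncates the protein, and the 5 wild-type mice (WT) carry no edit. The edit is constitutive, so every cell type of the HT brain carries it, and the mice descend from 1 edited line. The labels name no treatment, and neither the litters nor the dates of dissection are given in the sources used here.

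GABA and glycine are the main inhibitory transmitters of the central nervous system. GABA is made from glutamate by glutamate decarboxylase, is loaded into vesicles by the transporter that also loads glycine, and opens pentameric chloride channels (GABA-A and glycine receptors) or activates G protein-coupled GABA-B receptors. In newborn neurons intracellular chloride is high, since the importer NKCC1 (*Slc12a2*) dominates, and GABA can depolarise the cell; with maturation the exporter KCC2 (*Slc12a5*) takes over and GABA becomes inhibitory. Receptor subunits are exchanged over the same period, and glycine receptors and glycinergic neurons are concentrated in brainstem and spinal cord.

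A normalised read count is the estimated number of reads of a gene divided by a size factor of its library, and the totals were 27.2 M to 29.03 M per library (M, 1000000). *Arid1b*, the edited gene, had 2372, 2230.2, 2253, 1505 and 2142 normalised counts in HT 1 to HT 5 and 3386, 3155, 3597, 3429 and 3108 in WT 1 to WT 5. Every HT library was below every WT library, with an HT mean that was 63.0% of the WT mean. The library HT 4 stood apart from the other 9: genes deviated from their 10-library mean by a median of 0.209 in it (absolute log2 values) and by 0.0772 to 0.108 in the rest, and the tenth of genes with the longest transcripts had a median deviation of -0.26 in it while the tenth with the shortest had 0.26. Among the 30 genes, HT 4 was the lowest of the 10 libraries for 10 genes and the highest for 6. The 12 general neuronal markers were present in every library, with a summed level of 237298 to 272659 normalised counts in HT and 253005 to 260775 in WT.

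No gene of GABA or glycine signalling differed between HT and WT after adjustment for the number of genes tested. Of the 30, 26 had a higher and 4 a lower mean log2 value in HT, a share of 86.7% higher against 46.4% over all 17020 genes tested, and the differences were small: the median log2 fold change was 0.046 against -0.0074 over all genes, and 24 of the 30 lay within 0.1 of 0. The largest positive value was that of *Slc6a5* (0.50, 95% interval -0.49 to 1.49), and the 4 genes below 0 were *Gabrb2* (-0.10), *Gphn* (-0.072), *Slc12a2* (-0.067) and *Nlgn2* (-0.040). Fold changes are HT minus WT on the log2(value + 1) scale throughout.

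The test was limma with Benjamini-Hochberg adjustment over all 17020 genes. It called 0 of the 30 genes at an adjusted p under 0.05, and the same held for 0% of all genes tested; the smallest adjusted p among the 30 was 1.00. At an unadjusted p under 0.05, 2 of 30 were higher in HT, *Slc12a5* and *Glra3*, where the background was 1.47% of all genes, and 0 of 30 were lower, where the background was 1.93%. In 0 of 30 genes did the HT and WT libraries lie apart without overlap in either direction. Over all genes, 0.282% lay apart higher and 0.347% lower in HT. The edited gene *Arid1b* was itself not called with all libraries (limma adjusted p 0.390).

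Without HT 4 more of the genes were higher in HT by the unadjusted test, and still none by the adjusted one. The split was 26 higher and 4 lower (*Gphn*, *Slc6a13*, *Gabarap* and *Slc12a2*), where 49.6% of all genes were higher. The median log2 fold change became 0.064 against -0.00081 over all genes and 0.063 for the 12 general neuronal markers. In limma, 0 of 30 passed an adjusted p of 0.05, against 0.0118% of all genes. At an unadjusted p under 0.05, 8 of 30 were higher (*Gabra3*, *Gabrb1*, *Gabrb2*, *Gabrg3*, *Gabbr2*, *Gad2*, *Slc12a5* and *Glra3*), against 4.69% of all genes, and 0 of 30 were lower, against 3.71%. For *Gad2* and *Glra3* every remaining HT library was above every WT library, where the background was 1.75%. The smallest adjusted p among the 30 was 0.423 (limma, Benjamini-Hochberg), that of *Gad2*. How far the sample-wide pattern of HT 4 entered single genes was not tested beyond leaving it out.

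**Figure D1:**
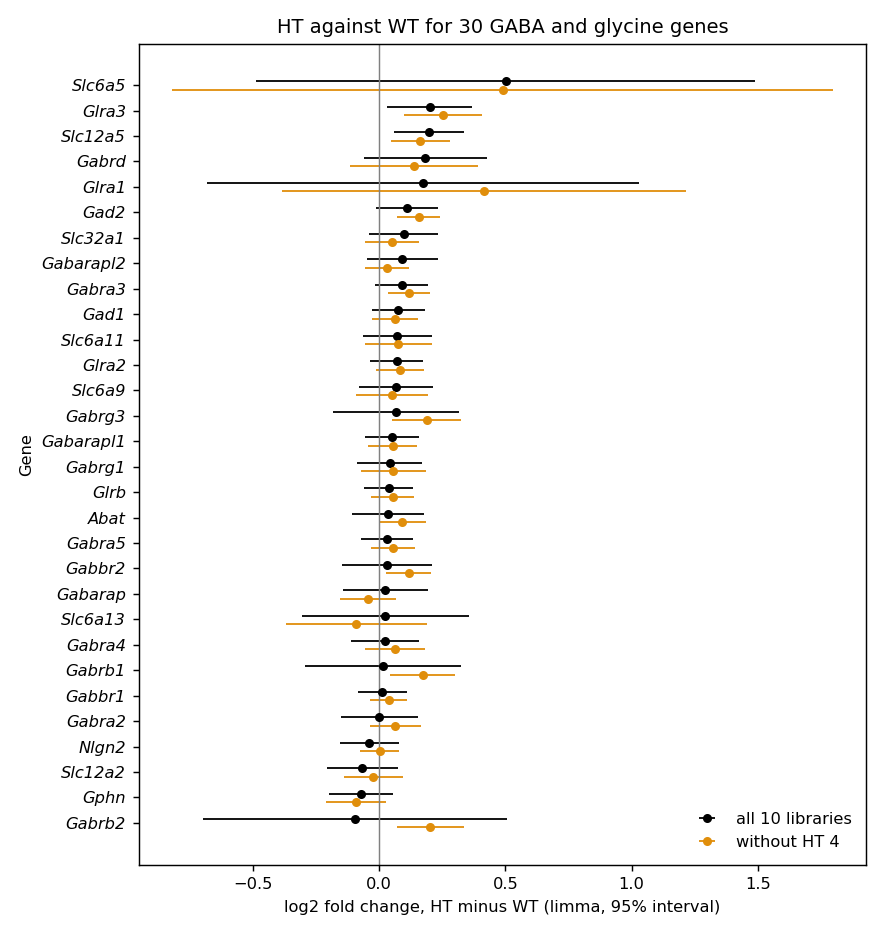
Log2 fold change of the 30 genes (HT minus WT, points) with the 95% interval of the limma fit (bars), with all 10 libraries in black and without HT 4 in orange. Most points lie slightly right of 0 with intervals that cover it; *Slc12a5* and *Glra3* have intervals above 0 in both fits, and *Gabrb2* moves from -0.10 to 0.20.

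The promoter windows of *Slc12a5*, *Glra3* and *Gad2* are printed so that the regulatory sequence beside their transcription start can be seen with the values. These 3 genes were picked from the same comparison, and no adjusted test called them. *Slc12a5* and *Glra3* had an unadjusted limma p under 0.05 with all libraries, and *Gad2* only without HT 4. The windows come from RefSeq on GRCm38.p6 and are all on the plus strand. They run from 250 bases before the annotated start to 50 bases after it. Capitals mark the motifs GGGCGG (a GC box, shown as CCGCCC where it lies on the other strand) and CANNTG (an E-box); each run of capitals is 1 match or matches that touch. The TATA motif TATAAA was searched on both strands and was found in none of the 4 windows.
*Slc12a5*, upstream start, chr2:164960596-164960895: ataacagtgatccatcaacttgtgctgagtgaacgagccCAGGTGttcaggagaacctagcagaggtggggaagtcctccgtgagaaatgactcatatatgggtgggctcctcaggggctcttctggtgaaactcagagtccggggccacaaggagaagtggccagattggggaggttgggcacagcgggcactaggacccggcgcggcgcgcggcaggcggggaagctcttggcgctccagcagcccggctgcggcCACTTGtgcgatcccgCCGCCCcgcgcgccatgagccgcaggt
*Slc12a5*, downstream start, chr2:164967738-164968037: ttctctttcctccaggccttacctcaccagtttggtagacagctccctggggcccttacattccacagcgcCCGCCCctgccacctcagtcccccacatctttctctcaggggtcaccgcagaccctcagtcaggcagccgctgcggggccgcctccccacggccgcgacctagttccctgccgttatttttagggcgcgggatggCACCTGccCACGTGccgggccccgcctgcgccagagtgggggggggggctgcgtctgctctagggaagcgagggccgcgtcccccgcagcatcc
*Glra3*, chr8:55940168-55940467: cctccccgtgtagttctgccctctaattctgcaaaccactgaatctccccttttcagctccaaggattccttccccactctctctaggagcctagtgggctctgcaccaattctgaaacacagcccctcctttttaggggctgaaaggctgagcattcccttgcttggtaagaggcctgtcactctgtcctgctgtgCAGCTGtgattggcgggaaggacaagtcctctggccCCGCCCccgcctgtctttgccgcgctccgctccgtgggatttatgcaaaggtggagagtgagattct
*Gad2*, chr2:22622077-22622376: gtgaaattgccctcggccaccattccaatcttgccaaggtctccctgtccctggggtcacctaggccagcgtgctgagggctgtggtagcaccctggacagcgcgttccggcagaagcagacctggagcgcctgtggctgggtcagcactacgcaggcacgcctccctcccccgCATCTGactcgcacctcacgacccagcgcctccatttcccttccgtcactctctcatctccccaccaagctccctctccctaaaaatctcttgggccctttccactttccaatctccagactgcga

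The 2 starts of *Slc12a5* each held 21 CpG dinucleotides, 1 GC box and 2 E-boxes, the *Gad2* window 14 CpGs, 0 GC boxes and 1 E-box, and the *Glra3* window 8 CpGs, 1 GC box and 1 E-box. A window was matched for 26 of the 30 genes, 36 windows in all. Those without one were *Abat*, *Gabrd*, *Glra1* and *Slc12a2*. A GC box occurred in 52.8% of the 36 windows and in 35.7% of all 32851 windows of the same length, an E-box in 52.8% against 72.3%, and TATAAA in 13.9% against 13.6%. The median number of CpGs was 12 in the 36 windows and 7 in all windows. Several genes contribute more than 1 window, and these shares describe letters, not binding.

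The chloride cotransporters set the direction of the GABA-A current. Positions here and below are on GRCm38 with GENCODE M21 gene models. *Slc12a5* (ENSMUSG00000017740; chr2:164960802-164999731, plus strand), the exporter, had 8378, 9004, 10041, 10624 and 10393 normalised counts in HT 1 to HT 5 and 8478, 8215, 8617, 8125 and 8640.0 in WT 1 to WT 5. The WT libraries lay close together, while 4 of the 5 HT libraries were above all of them and HT 1 fell inside the WT range. HT libraries had a mean of 9688 ± 959.6 and WT libraries one of 8415 ± 234 (SD, n = 5 each), which gave a log2 fold change of 0.20 ± 0.064 (SE; 95% interval 0.059 to 0.34). The unadjusted limma p was 0.00876 and the two-sided exact permutation p 0.0317, where the smallest that 5 against 5 libraries allow is 0.00794. The highest value came from HT 4, and without that library the log2 fold change was 0.16 (exact permutation p 0.0397); without HT 1 it was 0.25.

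*Slc12a2* (ENSMUSG00000024597; chr18:57878678-57946821, plus strand), the importer, had 1864, 1788, 1680.3, 1517 and 1723 normalised counts in the HT libraries and 1660.2, 1722, 1799, 1974 and 1819 in the WT libraries. The groups overlapped over most of their range, with HT 4 the lowest of the 10. Its log2 fold change was -0.067 (95% interval -0.21 to 0.074), so that a difference of this size was within the spread between mice. Without HT 4 it was -0.024. In whole tissue, a difference in a transcript can reflect fewer cells of a type or less RNA per cell, and these cannot be told apart here for this or any gene below.

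The exporter to importer ratio within a library compares both genes in the same RNA. The normalised counts of *Slc12a5* were 4.50, 5.04, 5.98, 7.002 and 6.03 times those of *Slc12a2* in HT 1 to HT 5 and 5.11, 4.77, 4.79, 4.12 and 4.75 times in WT 1 to WT 5. These ratios are not corrected for length. Per kilobase of the mean protein-coding transcript the mean WT ratio was 7.44. The 3 highest ratios were those of HT 4, HT 5 and HT 3, and the HT 1 ratio was below all but 1 of the WT ratios. The log2 ratio was higher in HT by 0.26 ± 0.12 (SE), with an exact permutation p of 0.0952 and 0.762 after Benjamini-Hochberg adjustment over the 8 ratios examined. Without HT 4 the difference was 0.19 (exact permutation p 0.175).

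**Figure D2:**
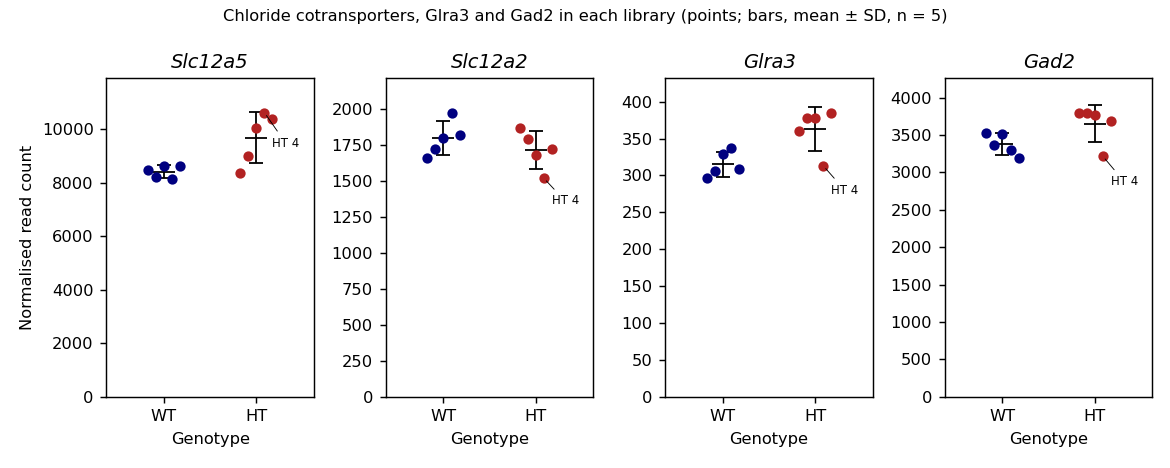
Normalised read count of *Slc12a5*, *Slc12a2*, *Glra3* and *Gad2* in each library (points, blue WT and red HT) with the mean and SD of each group (black, n = 5); axes start at 0. For *Glra3* and *Gad2*, HT 4 is the HT library that falls among the WT libraries, whereas for *Slc12a5* it is the highest of the 10.

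Glycine receptors are chloride channels built from alpha subunits and the beta subunit that anchors them to gephyrin. All 4 receptor genes had a higher mean log2 value in HT, where 46.4% of all genes did, and 1 of the 4 was higher at an unadjusted p under 0.05, beside 1.47% of all genes. That gene was *Glra3* (ENSMUSG00000038257; chr8:55940460-56130070, plus strand), which encodes the alpha-3 subunit and had 360.1, 377, 378, 313 and 385 normalised counts in HT 1 to HT 5 and 297, 306, 329, 337 and 308 in WT 1 to WT 5. The 4 HT libraries other than HT 4 were above every WT library, and HT 4 lay among the WT libraries. The means were 363 ± 29.4 and 315 ± 17.0 (SD, n = 5 each), for a log2 fold change of 0.20 ± 0.078 (SE) with a limma unadjusted p of 0.0246 and an exact permutation p of 0.0238. Leaving out HT 4 gave a log2 fold change of 0.25 and an exact permutation p of 0.00794. That permutation p is the smallest possible, and it follows from leaving out the only HT library within the WT range. The unadjusted limma p rose above the threshold without HT 2 (0.0544), HT 3 (0.0548), HT 5 (0.0592) or WT 1 (0.0587), and with the replicate number as a block (0.0530), while the log2 fold change was 0.18 to 0.25 over all removals of 1 library.

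*Glra2* (ENSMUSG00000018589; chrX:165129017-165327393, minus strand) encodes alpha-2, the subunit of fetal glycine receptors. It had 2802, 2776, 2559.8, 2623 and 2815 normalised counts in the HT and 2527, 2677, 2441, 2632 and 2668 in the WT libraries. The ranges overlapped, and the log2 fold change was 0.069 (95% interval -0.036 to 0.17). *Glra1* (ENSMUSG00000000263; chr11:55514238-55608198, minus strand), the adult alpha-1 subunit, was the scarcest transcript of the 30 per kilobase, with 54.7, 29.2, 32.9, 17.6 and 58.4 normalised counts in the HT libraries and 48.3, 12.5, 50.2, 27.5 and 34.7 in the WT libraries. Both groups spread over more than their mean difference, with HT 4 and WT 2 the lowest of their groups, and the log2 fold change of 0.17 had an interval of -0.68 to 1.03. The sign turned without WT 2, to -0.14. *Glrb*, the beta subunit, ranged from 2663 to 2893 in HT and from 2624 to 2844 in WT.

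Per kilobase of transcript, *Glra2* made up 92.6% ± 1.08 of the alpha transcripts of *Glra1*, *Glra2* and *Glra3* in WT and 92.1% ± 0.994 in HT (SD, n = 5 each). *Glra3* gave 5.47% ± 0.355 in WT and 5.96% ± 0.433 in HT, and *Glra1* 1.90% ± 0.895 and 1.96% ± 0.818. The fetal subunit therefore led in every library of both genotypes, from 91.1% in HT 5 to 94.1% in WT 2. The *Glra1* to *Glra2* log2 ratio was higher in HT by 0.11 ± 0.47 (SE), with an exact permutation p of 0.810.

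Glycine is cleared by a neuronal and a glial transporter. The neuronal transporter *Slc6a5* (ENSMUSG00000039728; chr7:49910146-49963856, plus strand), a marker of glycinergic neurons, had 504, 392, 573, 568 and 774 normalised counts in HT 1 to HT 5 and 650.0, 106, 602, 458 and 456 in WT 1 to WT 5. WT 2 was far below the other 9 libraries and HT 5 was the highest. The log2 fold change of 0.50 had an interval of -0.49 to 1.49 and an exact permutation p of 0.444, and without WT 2 the log2 fold change was 0.037. Set against its vesicle transporter *Slc32a1*, it gave a log2 ratio that was higher in HT by 0.40 (exact permutation p 0.611) and that differed by -0.048 without WT 2.

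Genes of the caudal *Hox* clusters, which mark hindbrain and spinal cord, varied widely between the same libraries. Of 17 such genes listed, 15 were in the table and 14 were tested, 4 of which were at 0 in at least 1 library. Their summed level ran from 191 to 2201 normalised counts in HT and from 62.7 to 1069 in WT. The *Hox* score of a library is the mean over the 14 genes of the log2 deviation from the gene mean, and it was -2.83 in WT 2, the lowest, and 2.10 in HT 5, the highest. Of the 14 genes 12 were higher in HT, where 46.4% of all genes were. At an unadjusted p under 0.05, 0 of them were higher, beside 1.47% of all genes. The scores of the groups overlapped (exact permutation p 0.738). Across the 10 libraries *Slc6a5* followed this score with a Pearson r of 0.732 (permutation p 0.00632, 0.0253 adjusted over 4 relations) and a Spearman rho of 0.576 (permutation p 0.0876, adjusted 0.228). Without WT 2 and HT 2, the libraries farthest from the median score, r was 0.302, and it was 0.538 without WT 2 alone and 0.753 without HT 2 alone. The relation therefore rests on these libraries, WT 2 above all. These removals of 1 library were chosen after seeing the data, here and for the relations below. How much caudal tissue each brain carried was not measured, and its part in the values of *Slc6a5* and *Glra1* was not tested.

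**Figure D3:**
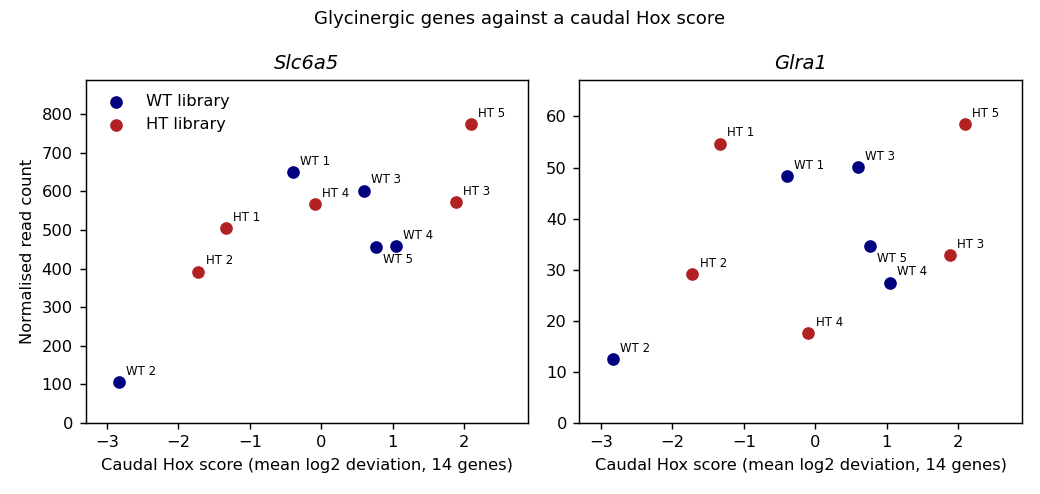
Normalised read count of *Slc6a5* and *Glra1* (vertical axes, starting at 0) against the caudal *Hox* score of the same library (horizontal axis, mean log2 deviation of 14 genes), with each point 1 library. WT 2 is lowest on both axes for both genes, HT 5 is highest on both, and the genotypes are mixed along the score.

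The glial transporter *Slc6a9* (ENSMUSG00000028542; chr4:117834506-117875198, plus strand) had 1417, 1451, 1577, 1575 and 1542 normalised counts in the HT and 1589, 1444, 1462, 1508 and 1237 in the WT libraries. WT 5 was the lowest, and the other 9 libraries overlapped. The log2 fold change was 0.066 (95% interval -0.079 to 0.21) and 0.011 without WT 5. WT 5 also had the lowest score of 12 astrocyte markers (-0.21, against -0.071 to 0.18 in the other libraries). Across the 10 libraries *Slc6a9* followed the astrocyte score with a Pearson r of 0.687 (permutation p 0.0472, adjusted 0.0944) and a Spearman rho of 0.358 (permutation p 0.312, adjusted 0.416), and r was -0.195 without WT 5 and HT 4. It was 0.194 without WT 5 alone and 0.666 without HT 4 alone, so the relation rests on WT 5.

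The synthesis genes mark GABAergic neurons. *Gad2* (ENSMUSG00000026787; chr2:22622205-22693874, plus strand), the decarboxylase isoform associated with terminals, had 3802, 3792, 3772, 3218 and 3689 normalised counts in HT 1 to HT 5 and 3533, 3363, 3518, 3298 and 3192 in WT 1 to WT 5. HT 4 lay inside the WT range and the other 4 HT libraries lay above all WT libraries. The means were 3654 ± 248 and 3381 ± 145 (SD, n = 5 each), for a log2 fold change of 0.11 ± 0.056 (SE; exact permutation p 0.0794). Without HT 4 it was 0.16 with a limma unadjusted p of 0.00144 and an exact permutation p of 0.00794. That permutation p is the smallest possible, and it follows from leaving out the only HT library within the WT range.

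*Gad1* (ENSMUSG00000070880; chr2:70553072-70602014, plus strand), the isoform that supplies most cellular GABA, had 5739.9, 5479.6, 6266, 6076 and 5736 normalised counts in the HT and 5463, 5656, 5627, 5298 and 5736 in the WT libraries. The log2 fold change was 0.076 (95% interval -0.028 to 0.18). HT 3 and HT 4 were above all WT libraries, HT 1 and HT 5 lay level with WT 5, and HT 2 lay inside the WT range. The vesicular transporter *Slc32a1* (ENSMUSG00000037771; chr2:158610767-158615748, plus strand), shared by GABA and glycine, had 1974, 2122, 2239, 2489 and 2192 in the HT and 2209, 1989, 2102, 2023 and 1960.4 in the WT libraries. Its highest value was that of HT 4 and its log2 fold change was 0.10, or 0.051 without HT 4. All 3 genes of the group had a higher mean log2 value in HT, where 46.4% of all genes did. With all libraries, 0 of the 3 had an unadjusted p under 0.05, beside 1.47% of all genes higher and 1.93% lower.

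The normalised counts of *Gad1* were 1.51, 1.45, 1.66, 1.89 and 1.55 times those of *Gad2* in the HT and 1.55, 1.68, 1.60, 1.61 and 1.80 times in the WT libraries. These ratios are not corrected for length. Per kilobase of the mean protein-coding transcript the mean WT ratio was 6.21. Per kilobase of all annotated exons the WT means were 727 for *Gad1* and 575 for *Gad2*. HT 4 had the highest ratio of the 10, and the log2 ratio differed by -0.035 between HT and WT (exact permutation p 0.659). A list of 11 forebrain interneuron genes had summed levels of 8841 to 10219 normalised counts in HT and 8421 to 9749 in WT, and its score differed by 0.0038 between the groups (exact permutation p 0.960). *Gad1* and this score had a Pearson r of 0.293 (permutation p 0.411, adjusted 0.411) and a Spearman rho of 0.236 (permutation p 0.515, adjusted 0.515); r was 0.773 without HT 5 and HT 4, 0.648 without HT 4 alone and 0.343 without HT 5 alone.

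GABA-A receptors are pentamers of alpha, beta and further subunits, and the alpha subunit sets much of their kinetics and location. Of the 9 subunit genes analysed, 8 had a higher mean log2 value in HT, where 46.4% of all genes did. The median log2 fold change of the 9 was 0.031, and 0 of 9 had an unadjusted p under 0.05, beside 1.47% of all genes higher and 1.93% lower. Without HT 4 all 9 were higher, with a median of 0.12, where 49.6% of all genes were higher, and 4 of the 9 were higher at an unadjusted p under 0.05, beside 4.69% of all genes.

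*Gabra3* (ENSMUSG00000031343; chrX:72432681-72656848, minus strand), an alpha subunit of the immature brain, had 3647, 3883, 3709.9, 3413 and 3850.0 normalised counts in HT 1 to HT 5 and 3469.9, 3651, 3342, 3471 and 3446 in WT 1 to WT 5. HT 4 was the only HT library below the WT mean of 3476, and WT 2 was the only WT library above any other HT library. The log2 fold change was 0.089 (95% interval -0.015 to 0.19) and 0.12 without HT 4. *Gabra5* (ENSMUSG00000055078; chr7:57407672-57510059, minus strand), which forms largely extrasynaptic receptors, had 3466, 3449, 3411, 3207 and 3603 in the HT and 3167, 3474, 3321, 3299 and 3513 in the WT libraries, with a log2 fold change of 0.031. Its groups overlapped over nearly their whole range.

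*Gabra2* (ENSMUSG00000000560; chr5:70957597-71095849, minus strand), a synaptic alpha subunit expressed early, had 4301, 4467, 4143, 3547 and 4789 normalised counts in the HT and 4519, 4046, 4279, 4188 and 4119.8 in the WT libraries. The HT libraries lay on both sides of the WT range, with HT 5 the highest and HT 4 the lowest of the 10, and the log2 fold change was 0.00043 (95% interval -0.15 to 0.15). *Gabra4* (ENSMUSG00000029211; chr5:71569749-71658308, minus strand), which becomes abundant later in the forebrain, had 1021, 1022, 982, 858 and 919 in the HT and 992, 930.3, 962, 952 and 879.6 in the WT libraries. The groups overlapped, with a log2 fold change of 0.024.

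Among these 4 alpha genes, per kilobase of transcript, *Gabra5* gave 35.8% ± 1.31 and *Gabra3* 34.0% ± 0.709 in WT, *Gabra2* 19.3% ± 0.972 and *Gabra4* 10.9% ± 0.546 (SD, n = 5). In HT the shares were 35.5% ± 0.750, 35.1% ± 0.575, 18.7% ± 1.04 and 10.7% ± 0.606. The ranges of *Gabra5* and *Gabra3* overlapped in WT, and *Gabra2* exceeded *Gabra4* in every library. The shares depend on the length used: per kilobase of all annotated exons *Gabra5* gave 41.4% and *Gabra3* 32.5% in WT, and *Gabra4* 5.70%. The *Gabra4* to *Gabra2* log2 ratio differed by 0.023 ± 0.064 (SE; exact permutation p 0.786).

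*Gabrb1* (ENSMUSG00000029212; chr5:71658113-72149037, plus strand) and *Gabrb2* encode beta subunits, which carry part of the GABA-binding site. *Gabrb1* had 3199.7, 3147, 3369, 1820.4 and 2909.7 normalised counts in the HT and 2730.3, 2736, 3126, 2914 and 2519.6 in the WT libraries. HT 4 was below every other library, and the log2 fold change was 0.013 with it and 0.17 when it was left out. *Gabrb2* (ENSMUSG00000007653; chr11:42419757-42629028, plus strand) had 2596, 2252, 2341, 831 and 2237 in the HT and 2105, 1932, 2314, 1982 and 1912 in the WT libraries. HT 4 again was far below the rest, and its removal turned the log2 fold change from -0.10 to 0.20 (exact permutation p 0.0397 without HT 4). The *Gabrb2* to *Gabrb1* log2 ratio differed by -0.11 (exact permutation p 0.714) and by 0.031 without HT 4.

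The gamma subunits direct receptors to synapses. *Gabrg3* (ENSMUSG00000055026; chr7:56716465-57387188, minus strand) had 1285, 1261, 1338, 866 and 1409.8 normalised counts in the HT and 1175, 1098, 1199.5, 1303 and 1046 in the WT libraries. HT 4 was the lowest of the 10, and the log2 fold change was 0.066 with it and 0.19 without it (exact permutation p 0.0397 without HT 4). *Gabrg1* ranged from 996 to 1151 in HT and from 956 to 1085 in WT, with a log2 fold change of 0.041. *Gabrd* (ENSMUSG00000029054; chr4:155384980-155398112, minus strand), whose delta subunit forms extrasynaptic receptors of mature granule cells, was low, with 123, 141, 137, 151 and 118 in the HT and 117, 128, 112, 129.9 and 102 in the WT libraries. HT 4 was the highest and WT 5 the lowest of the 10, and the log2 fold change was 0.18 (95% interval -0.060 to 0.43). Against *Gabra5*, its log2 ratio differed by 0.15 ± 0.12 (SE; exact permutation p 0.238), and by 0.084 without HT 4.

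**Figure D4:**
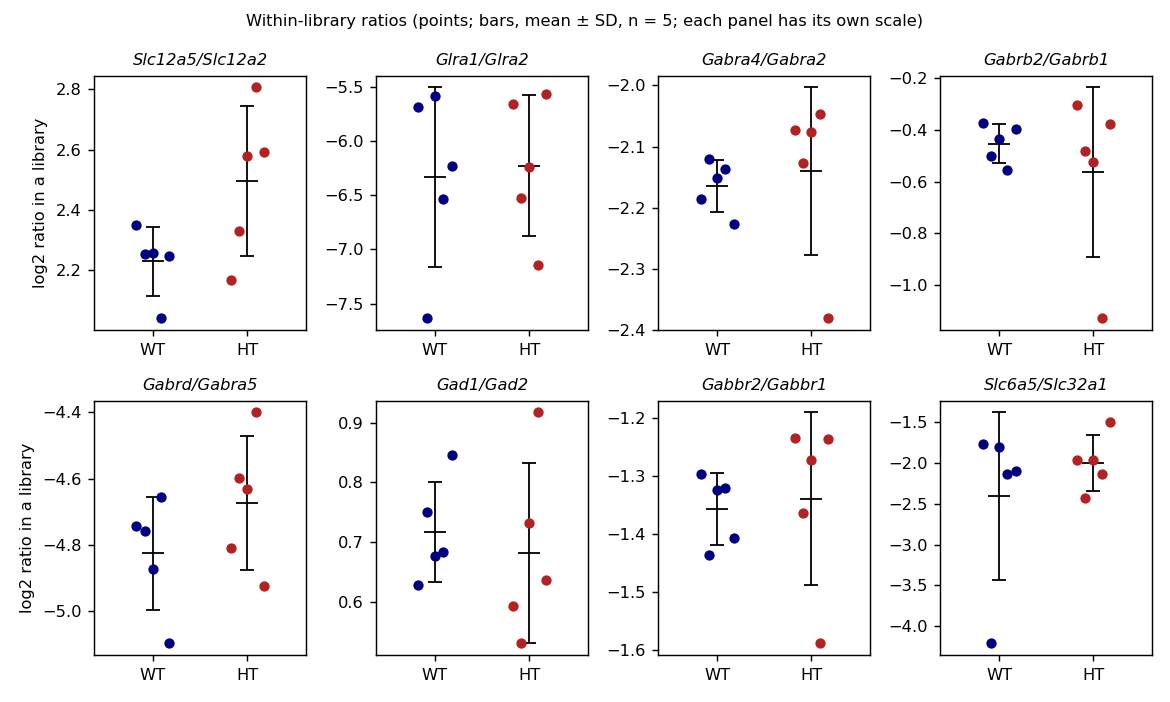
Log2 ratio of 8 pairs of transcripts within each library (points, blue WT and red HT), with the mean and SD of each group (black, n = 5); every panel has its own vertical scale that does not start at 0. The groups overlap in all 8 panels, and single libraries (HT 4 for *Gabrb2/Gabrb1*, HT 5 for *Gabra4/Gabra2*, WT 2 for *Slc6a5/Slc32a1*) set the spread of their group.

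The obligate GABA-B heterodimer combines *Gabbr1*, which binds GABA, and *Gabbr2*, which couples to the G protein. *Gabbr1* (ENSMUSG00000024462; chr17:37045966-37075067, plus strand) had 17352, 18883, 18252, 16559 and 17631 normalised counts in the HT and 18036, 17583, 18086, 16991 and 17159 in the WT libraries. It had the highest normalised counts of the 30 genes, and its log2 fold change of 0.012 had an interval of -0.085 to 0.11. *Gabbr2* (ENSMUSG00000039809; chr4:46662305-46991873, minus strand) had 7378, 7336, 7554, 5506 and 7487 in the HT and 7343, 6495, 7228, 6807 and 6472 in the WT libraries. The other 4 HT libraries lay close together and HT 4 stood below every library, so that the log2 fold change was 0.030 with HT 4 and 0.12 without it (exact permutation p 0.0476). The *Gabbr2* to *Gabbr1* log2 ratio differed by 0.018 (exact permutation p 0.841).

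None of the 3 genes of GABA uptake and breakdown had an unadjusted p under 0.05 in limma with all libraries or without HT 4. The backgrounds were 1.47% of all genes higher and 1.93% lower with all libraries, and 4.69% and 3.71% without HT 4. *Slc6a11*, the astrocytic GABA transporter, ranged from 8314 to 9027 normalised counts in HT and from 6973 to 8786 in WT, where WT 5 was far below the other 9 libraries. Its log2 fold change was 0.072 and, without WT 5, 0.0093. *Abat*, the transaminase that degrades GABA, ranged from 4432 to 5651 in HT and from 4737 to 5434 in WT, with a log2 fold change of 0.035 that ran from 0.0045 without HT 3 to 0.092 without HT 4.

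*Slc6a13* (ENSMUSG00000030108; chr6:121300227-121337733, plus strand) is a GABA and taurine transporter best known from the meninges. It had 543, 556, 463, 723 and 396 normalised counts in the HT and 493, 639.7, 420.4, 584 and 475 in the WT libraries. HT 4 was the highest and HT 5 the lowest of the 10, and the log2 fold change was 0.024 with HT 4 and -0.091 without it. The 12 meningeal and fibroblast genes had summed levels of 15371 to 24984 normalised counts in HT and 16066 to 43399 in WT, and the scores of the groups overlapped (exact permutation p 0.310). *Slc6a13* and this score had a Pearson r of 0.476 (permutation p 0.165, adjusted 0.220) and a Spearman rho of 0.539 (permutation p 0.114, adjusted 0.228), and r was 0.921 without WT 3 and HT 5, 0.931 without WT 3 alone and 0.318 without HT 5 alone. The share of meninges left on each brain was not measured, and its part in *Slc6a13* was not tested.

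The inhibitory scaffold was the 1 group in which both genes had a lower mean in HT, where 46.4% of all genes had a higher mean log2 value. *Gphn*, encoding gephyrin, which clusters glycine and GABA-A receptors, ranged from 2189 to 2521 in HT and from 2327 to 2647 in WT (log2 fold change -0.072, 95% interval -0.20 to 0.055). *Nlgn2*, the adhesion molecule of inhibitory synapses, ranged from 8533 to 10194 in HT and from 9544 to 10500.2 in WT, with a log2 fold change of -0.040 (0.0020 if HT 4 is left out). Both intervals covered 0.

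The GABARAP family links receptors to trafficking and serves in autophagy. *Gabarap* ranged from 3724 to 5215 in HT and from 4024 to 4564 in WT, *Gabarapl1* from 4476 to 5147 and from 4451 to 4868, and *Gabarapl2* from 2738 to 3551 and from 2714 to 2935. HT 4 held the highest value of *Gabarap* and *Gabarapl2*, but not of *Gabarapl1*, which has the shortest mean protein-coding transcript of the 3 (947 bases) and was highest in HT 3. The *Gabarap* and *Gabarapl2* log2 fold changes were 0.025 and 0.091 with HT 4 and -0.045 and 0.030 without it. Of the 31-base words of *Gabarapl2* transcripts, 15.2% also occur in transcripts of other genes, and the pseudogene *Gm3724* shares the most. Reads of *Gabarapl2* may therefore be divided between genes. For *Gad1* this share was 3.97% (most with *Gad1-ps*), for *Glrb* 3.65%, and at most 1.75% for the others.

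Levels of different genes can be compared only per length, and they are given here as normalised counts per kilobase of the mean protein-coding transcript. In WT they ran from 16.7 for *Glra1*, 48.5 for *Glra3*, 61.3 for *Gabrd* and 82.7 for *Slc6a5* to 4027 for *Gabarap*, 4933 for *Gabarapl1* and 6676 for *Gabbr1*. The length used matters: per kilobase of all annotated exons *Gad1* fell from the 4th to the 13th place, while *Glra1* was last with either length.

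**Figure D5:**
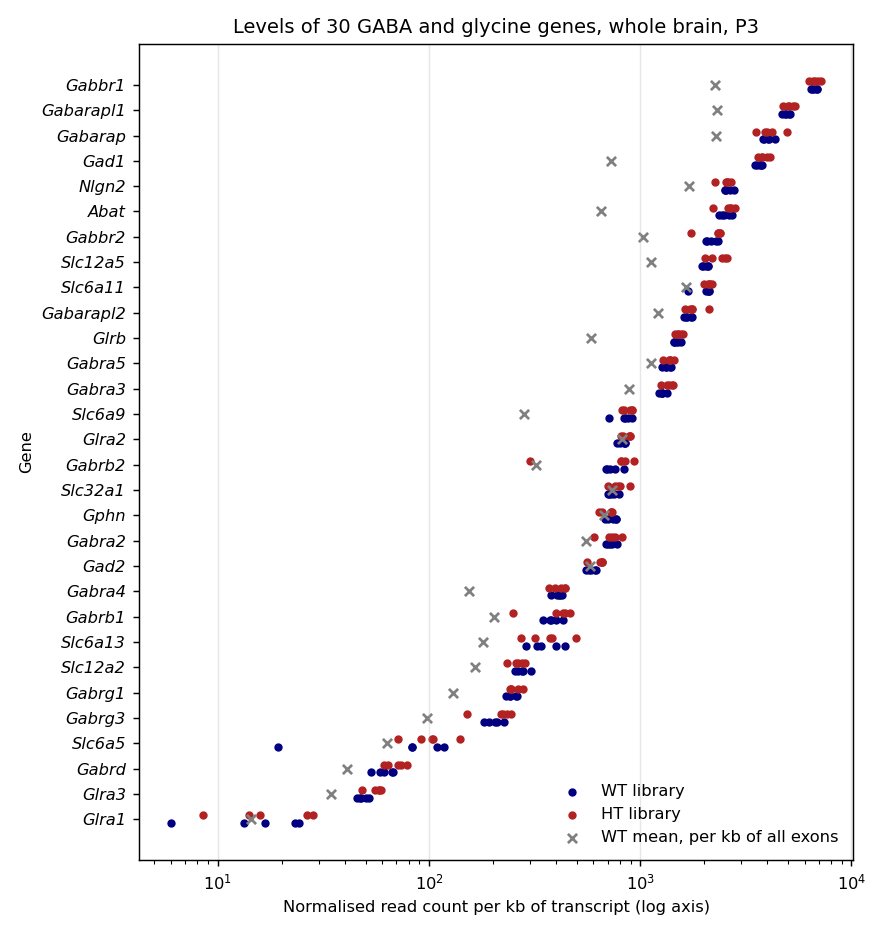
Normalised read count per kilobase of the mean protein-coding transcript (log axis) for 30 genes, ordered by the WT mean, with each library a point (blue WT, red HT) and the WT mean per kilobase of all annotated exons a grey cross. HT and WT points overlap for every gene, and the spread is widest for *Glra1* and *Slc6a5*.

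The spread between mice was small for most of the genes. The coefficient of variation was under 10% for 27 of 30 genes in WT and for 19 of 30 in HT, with medians of 5.25% and 7.84%. It ran in WT from 2.78% for *Slc12a5* to 46.8% for *Slc6a5*. In HT it exceeded that in WT for 25 of 30 genes (83.3%), against 69.0% of all genes, and without HT 4 for 12 of 30, against 46.3% of all genes.

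Other genes of the pathway were taken from a list of 34 that holds rarer receptor subunits, enzymes of GABA, glutamine and glycine metabolism, GABA-B auxiliary proteins, receptor trafficking proteins and the kinases that regulate the chloride cotransporters. Of these, 32 were in the table and all 32 were tested, while *Gabrr2* and *Glra4* were not analysed here. Of the 32, 19 were higher and 13 lower in HT, where 46.4% of all genes were higher, and the median log2 fold change was 0.0043. In limma, 0 passed the adjusted threshold. At an unadjusted p under 0.05, 3 were higher and 1 lower (*Gldc*, -0.19, named after its values were seen), beside backgrounds of 1.47% and 1.93%. Without HT 4, 9 were higher and 1 lower at that level, beside 4.69% and 3.71%.

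The 3 with the smallest p were *Kctd8*, *Gabre* and *Slc6a12*. *Kctd8*, an auxiliary subunit of GABA-B receptors, had 435, 464, 464, 487 and 411 normalised counts in the HT and 405, 339, 374, 406 and 392 in the WT libraries. Every HT library was above every WT library, as for 0.282% of all genes, with a log2 fold change of 0.24 ± 0.075 (SE; limma unadjusted p 0.00730, adjusted p 1.00). *Gabre*, the epsilon subunit of GABA-A receptors, had 93.0, 84.2, 78.0, 88.6 and 95.2 in the HT and 79.6, 53.0, 56.5, 59.9 and 84.5 in the WT libraries, with overlap and a log2 fold change of 0.41 ± 0.15 (SE). *Slc6a12*, a betaine and GABA transporter, had 119, 86.5, 102, 114 and 67.8 in the HT and 80.6, 65.2, 44.4, 88.8 and 61.1 in the WT libraries, with overlap and a log2 fold change of 0.53 ± 0.21 (SE). It lies beside *Slc6a13* and 1.08% of the 31-base words of *Slc6a13* are shared with another gene.

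Markers of other cell types gave the tissue background of these values. Over all genes, 46.4% were higher in HT, and 1.93% were lower at an unadjusted p under 0.05. Of 12 microglial genes 12 were lower in HT, 0 of them at that level. Their summed levels were 2103 to 3204 normalised counts in HT and 2282 to 3772 in WT (score, exact permutation p 0.159). Of 12 astrocyte genes 8 were higher (46964 to 52469 in HT and 42362 to 52052 in WT), of 12 oligodendrocyte-lineage genes 9 (15285 to 21879 and 15643 to 18281), and of 12 cerebellar granule cell genes 2 (16495 to 21373 and 17749 to 20772). Of the 12 general neuronal genes 8 were higher in HT. Without HT 4, where 8 of the 30 GABA and glycine genes had an unadjusted p under 0.05, 11 of the 12 neuronal genes were higher. Of the neuronal genes 2 were higher at that level (4.69% of all genes), and their median log2 fold change was 0.063, beside 0.064 for the 30. The microglial genes were lower in 12 of 12 cases, 3 of them at that level (3.71% of all genes), with a median log2 fold change of -0.34. The part of these lists in the genes above was not tested beyond the 4 relations given.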

How the data were processed

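Per the study's methods, poly-A RNA of whole brains (RIN above 7) was sequenced as paired reads and quantified with Salmon 1.1.0 against GRCm38 with a GC-bias correction. The authors imported the estimates with tximport and divided them by DESeq2 1.30.1 size factors, and this normalised signal is the value deposited. Most small values were not whole multiples of 1 read, so whole reads were not recovered and count-based tests were not run. The depth in reads of each library was not used; totals were 27.2 M to 29.03 M normalised counts (M, 1000000). Values were analysed as log2(value + 1) with limma 3.58.1 in R 4.3.3 (limma-trend, robust, two-sided, no covariate) for 17020 genes with a mean of at least 10, and 1424 genes were left out. Benjamini-Hochberg adjustment was over all genes tested, at 0.05. A log2 fold change on this scale understates the change of low genes. Single values were compared by exact permutation over 252 assignments with all libraries. Where 1 library was left out, the assignments were all those of 4 against 5 (smallest possible p 0.00794). GENCODE M21 gave symbols and lengths for 18431 of 18444 genes. The workflow was tested on simulated data with independent noise for each gene. The simulation held no library that stood apart over many genes, as HT 4 does here.

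The 31 genes, the other gene lists and the 8 ratios were chosen with earlier results of these data known. By rule, values of every library are given for genes with an unadjusted p under 0.05 (with all libraries or without HT 4) or in a ratio or relation, and ranges for the rest; of the wider pathway list, the 3 with the smallest p are named. Samples were grouped by the genotype in their labels. Nothing states which mice shared a litter. The p-values set the group difference against the spread between these mice and treat them as independent, which could not be checked. Alternatives were other filters, pseudocounts, scalings, sample weights, removal of a length and GC trend, a replicate block, no robust step and leaving out each library. Promoter windows come from RefSeq (GRCm38.p6).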

Additional observations from a re-analysis of the deposited data

Results flagged for a closer look

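Within each group of 5 libraries, the gap between the most extreme library and its neighbour was divided by the range of the group and set against Dixon's critical value of 0.71. Of 76 groups checked (30 genes and 8 ratios, HT and WT separately), 9 were above it, where chance gives about 1 in 20, or 3.8; the groups are not independent, and in 6 of the 9 the extreme library was HT 4.

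In HT, HT 4 was the lowest library for *Gabbr2* (gap over range 0.894), *Gad2* (0.807), *Gabrb2* (0.797) and *Gabrg3* (0.727), and the highest for *Gabarapl2* (0.731). HT 4 was also the lowest for the log2 ratio *Gabrb2/Gabrb1* (0.730). The mean protein-coding transcript of *Gabarapl2* is 1677 bases long, and those of *Gabbr2*, *Gad2*, *Gabrb2* and *Gabrg3* are 3150.0, 5744, 2764 and 5746 bases. *Slc12a5* (4124 bases) was highest in HT 4, and *Gabarapl1* (947 bases) was highest in HT 3. Over all genes tested, the median deviation in HT 4 was 0.26 for the tenth with the shortest transcripts. For the tenth with the longest it was -0.26. A part of transcript length in these values was not tested beyond the removal of a length and GC trend.

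Of the remaining groups, WT 5 was the lowest WT library for *Slc6a11* (0.827), and it also had the lowest astrocyte score. WT 2 was the lowest WT library for the log2 ratio *Slc6a5/Slc32a1* (0.846), and it also had the lowest caudal *Hox* score. HT 5 was the lowest HT library for the log2 ratio *Gabra4/Gabra2* (0.758).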

How the results depend on the processing

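Over the 20 alternatives the count of the 30 genes with an adjusted p under 0.05 in limma was 0 in every one. Between 22 and 26 of them (25 of 29 with a minimum mean of 100) were higher in HT, beside 43.2% to 53.9% of all genes. *Slc12a5*, *Glra3*, *Gad2* and *Gabra3* kept a positive log2 fold change in each (0.16 to 0.25, 0.18 to 0.26, 0.090 to 0.16 and 0.072 to 0.12). The number of the 30 higher at an unadjusted p under 0.05 was 2 with all libraries, 4 with sample weights and 4 with the length and GC trend removed (*Gabra3*, *Gad2*, *Slc12a5* and *Glra3* both times), and 1 to 8 on leaving out 1 library. Over all genes, the adjusted count was 0 to 2 on leaving out 1 library, 2 with weights and 1 with the trend removed; the unadjusted count of higher genes was 192 to 798, 548 and 427, and 159 with a minimum mean of 100, and that of lower genes 247 to 631 and 732 with weights.

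Replicate numbers are shared by HT and WT in the labels. The deviations of same-numbered libraries had correlations of 0.0911, 0.0843, 0.0815, -0.104 and 0.0926 for numbers 1 to 5. HT 1, HT 2, HT 3 and HT 5 correlated best with the WT library of their own number. Of the WT libraries, WT 1 and WT 3 correlated best with the HT library of theirs. Whether the numbers stand for more than a name was not tested. With the replicate block 1 of the 30 genes, *Slc12a5*, was higher at an unadjusted p under 0.05, over all genes 219 were higher, 339 lower and 0 called, and the exact paired test of the *Slc12a5/Slc12a2* ratio difference of 0.26 had an adjusted p of 0.750 (5 pairs cannot go below 0.0625 unadjusted).

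*Arid1b* did not pass the adjusted limma threshold in the main fit with all libraries (adjusted p 0.390). It passed with weights (limma adjusted p 6.87e-04), with the trend removed (5.22e-04) and without HT 4 (2.52e-04), and in no other alternative. Its log2 fold change was -0.73 to -0.57 on leaving out 1 library.

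Signs turned as follows, for differences that no adjusted test called; *Gabrb1* and *Gabrb2* were higher at an unadjusted p under 0.05 without HT 4 (p 0.0121 and 0.00550 in limma). On leaving out 1 library the log2 fold changes ran from -0.045 to 0.077 for *Gabarap*, -0.011 to 0.037 for *Gabbr1*, -0.044 to 0.064 for *Gabra2*, -0.0012 to 0.063 for *Gabra4*, -0.050 to 0.17 for *Gabrb1*, -0.21 to 0.20 for *Gabrb2*, -0.14 to 0.42 for *Glra1*, -0.062 to 0.0020 for *Nlgn2* and -0.091 to 0.13 for *Slc6a13*, and the log2 ratio differences from -0.0087 to 0.080 for *Gabbr2/Gabbr1*, -0.00040 to 0.083 for *Gabra4/Gabra2*, -0.18 to 0.031 for *Gabrb2/Gabrb1*, -0.093 to 0.0030 for *Gad1/Gad2*, -0.22 to 0.33 for *Glra1/Glra2* and -0.048 to 0.56 for *Slc6a5/Slc32a1*. Equal totals gave -0.0061 for *Gabra2*, quantile normalisation -0.0016 for *Gabbr1*, weights 0.13 for *Gabrb2*, -0.062 for *Slc6a13* and -0.019 for *Gabarap*, and the trend removed -0.010 for *Gabra4/Gabra2*. The cause was not tested. With 5 mice a group, the median width of a 95% interval over the 30 genes was 0.28 on the log2 scale.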
